A study of Mus musculus with 9 samples.

Results

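Clathrin-mediated endocytosis retrieves synaptic vesicle membrane after transmitter release. The 10 genes described here encode its coat and core machinery and were chosen by symbol: Cltc, Clta and Cltb of the clathrin coat, Sh3gl2 and Amph, which bend membrane, Dnm1 and Dnm3, which cut the neck of the bud, and Dnajc6, Gak and Synj1, which strip the coat. All 10 are present, each as 1 of the 24487 rows of the deposited FPKM table, in which read numbers are divided by transcript length and by depth. The tested libraries are 4 of dopaminergic neurons from the midbrain, and they were set against 5 libraries of whole midbrain, both from mice of the C57BL/6 background. RNA was sequenced from amplified cDNA. Age, sex, the number of animals per library, any transgene and the way the dopaminergic RNA was isolated are not stated in the labels. The FPKM table has bacTRAP in its title, a term for capturing tagged ribosomes of 1 cell type through a transgene.

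In a clathrin-coated pit, heavy chains encoded by Cltc form the lattice and light chains encoded by Clta and Cltb bind along them. Endophilin A1 (Sh3gl2) and amphiphysin (Amph) sense or induce curvature and recruit the GTPase dynamin, which severs the pit from the plasma membrane. Auxilin (Dnajc6) and its widely expressed relative cyclin G-associated kinase (Gak) then bring the chaperone Hsc70 to the coat, while synaptojanin 1 (Synj1) removes phosphates from the membrane lipids that hold adaptors in place. Human mutations in the genes for auxilin and synaptojanin 1 cause early-onset parkinsonism, and dopaminergic neurons of the midbrain are the cells lost in that disease.

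The 2 members with the largest log2 fold changes, Cltc and Cltb, are clathrin genes, so the sequences around the starts of the 3 clathrin genes are given first. Each window runs from 250 bases before to 50 bases after a RefSeq start (build GRCm38.p6, the same assembly as mm10) and is written along the gene's own strand. Where RefSeq has several starts, the one nearest to the start in the deposited table was taken. Capitals mark matches on either strand to the GC box GGGCGG and the cyclic AMP response element TGACGTCA, the only ones found in these windows among 5 motifs searched; no marked match overlaps another.
Cltc, chr11:86757518-86757817, minus strand: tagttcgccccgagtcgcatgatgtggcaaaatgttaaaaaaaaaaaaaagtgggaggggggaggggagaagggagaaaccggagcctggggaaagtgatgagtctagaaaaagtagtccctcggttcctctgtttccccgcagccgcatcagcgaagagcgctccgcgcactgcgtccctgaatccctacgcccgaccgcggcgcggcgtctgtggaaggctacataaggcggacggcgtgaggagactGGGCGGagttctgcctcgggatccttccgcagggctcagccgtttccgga
Clta, chr4:44012420-44012719, plus strand: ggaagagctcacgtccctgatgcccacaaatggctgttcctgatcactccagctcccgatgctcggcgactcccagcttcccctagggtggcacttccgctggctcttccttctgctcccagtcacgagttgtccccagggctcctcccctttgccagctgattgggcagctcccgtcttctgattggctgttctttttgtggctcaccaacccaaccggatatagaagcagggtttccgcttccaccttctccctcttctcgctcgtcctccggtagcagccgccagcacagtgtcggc
Cltb, chr13:54611324-54611623, minus strand: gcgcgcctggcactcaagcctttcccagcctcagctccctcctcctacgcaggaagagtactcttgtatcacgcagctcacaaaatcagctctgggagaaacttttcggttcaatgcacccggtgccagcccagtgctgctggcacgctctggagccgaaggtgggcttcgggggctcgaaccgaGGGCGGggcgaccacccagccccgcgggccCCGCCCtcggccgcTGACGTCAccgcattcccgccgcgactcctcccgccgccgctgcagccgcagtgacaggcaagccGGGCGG

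The windows had a GC content of 59.7% for Cltc, 60.0% for Clta and 68.3% for Cltb, against a median of 52.7% over all 32851 RefSeq windows of this length. The Cltb window held 3 GC boxes and 1 cyclic AMP response element, the Cltc window 1 GC box and the Clta window neither. Over the 10 members, 5 windows held a GC box, against 35.7% of all windows, and 2 (Cltb and Sh3gl2) held the response element, against 1.79% of all windows. The E-box CACGTG, the NBRE AAAGGTCA, to which the dopaminergic factor Nr4a2 can bind, and the letters TATAAA were in none of the 10 windows, and they were in 7.15%, 1.51% and 13.6% of all windows. These matches are descriptions of the letters only.

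Some properties of the libraries bear on all values below. The read number, estimated from the smallest FPKM of short receptor genes, was 47.2 to 62.5 megareads in dopaminergic libraries and 16.2 to 33.5 megareads in whole midbrain libraries. By this estimate 1 read per kilobase was worth 0.0160 to 0.0617 FPKM, and every member stood far above it. The FPKM summed to 506466 to 521822 in dopaminergic libraries and to 309275 to 409130 in whole midbrain libraries, the highest of these being whole midbrain library 2. That library correlated at 0.903 to 0.906 (Pearson's r across genes) with the rest of its group, which correlated at 0.947 to 0.962 among themselves. Within the whole midbrain group, 7 of the 10 members were at their highest and 3 at their lowest in that library. The share of all genes with an extreme there was not counted. Tyrosine hydroxylase, Th, was at 1619 ± 121 FPKM in dopaminergic neurons (SD, n = 4) and 47.2 ± 2.84 in whole midbrain (SD, n = 5), and all 8 dopaminergic markers were called higher. All markers listed for vessels, microglia, astrocytes, oligodendrocytes and oligodendrocyte precursors were called lower. Most of those for vessels, microglia and precursors averaged under 1 FPKM in dopaminergic libraries and were tested only through their level in whole midbrain. The summed level of the 10 oligodendrocyte markers was 180.1 to 309.4 FPKM in dopaminergic libraries and 2973 to 3449 FPKM in whole midbrain libraries, and that of the 10 astrocyte markers was 182 to 221 and 1468 to 1590 FPKM; none of these markers was at 0 in any dopaminergic library, and their part in the results below was not tested. Of 10 pan-neuronal genes 7 were called higher and 1 lower, with a summed level of 7640 to 8415 FPKM in dopaminergic libraries and 3047 to 3720 FPKM in whole midbrain libraries. All 5 GABAergic and all 3 glutamatergic markers were called lower. The summed GABAergic markers were at 69.3 to 98.7 FPKM in dopaminergic libraries and 377 to 816 FPKM in whole midbrain libraries. Whole midbrain library 2 set the upper end for GABAergic (816) and oligodendrocyte markers (3449) and the lower end for astrocyte markers (1468) and pan-neuronal genes (3047). Of 6 serotonergic, noradrenergic and cholinergic markers 4 were tested and 3 called lower, while Chat did not pass (limma adjusted p = 0.35). The part of these neuronal genes in the results was not tested either. In such bulk RNA, fewer cells of a type and less RNA per cell cannot be told apart. If the dopaminergic RNA was captured on tagged ribosomes, a difference between captured and whole-tissue RNA cannot be told apart from cell type. That holds for every fold change, share and ratio below.

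Of the 10 members, 6 were called higher in dopaminergic neurons (Clta, Cltb, Dnajc6, Gak, Amph and Dnm1), 1 lower (Cltc), and Synj1, Sh3gl2 and Dnm3 did not pass. The call is an adjusted p under 0.05 in limma (moderated test on log2(FPKM + 1), two-sided, Benjamini-Hochberg adjustment over the 13106 genes averaging 1 FPKM or more). By the same rule 38.3% of all genes tested were called higher and 36.0% lower, so 6 of 10 and 1 of 10 are to be read against those shares. The median log2 fold change of the members was 0.37, and that of all genes tested was 0.04. Every dopaminergic library was above every whole midbrain library for 5 members (32.6% of all genes tested) and below for 2, Cltc and Sh3gl2 (31.8% of all genes tested). Only the fall of Cltc and the rise of Cltb were called in the same direction under every one of the 22 alternative settings run; when FPKM was rescaled to TPM, the members called higher were 1 and lower 5, and after quantile normalization also 1 and 5. With exonic length corrected 8 were called higher and 1 lower. Of the 13106 genes tested, 2248 were higher and 7393 lower as TPM, and 4998 and 4100 after quantile normalization. With exonic length corrected they were 4733 and 4196 of 12417, and the member counts are to be read against these. Nothing in the labels ties a library to its own animals, and the p-values reflect only the spread between these libraries, which may be technical.

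**Figure D1:**
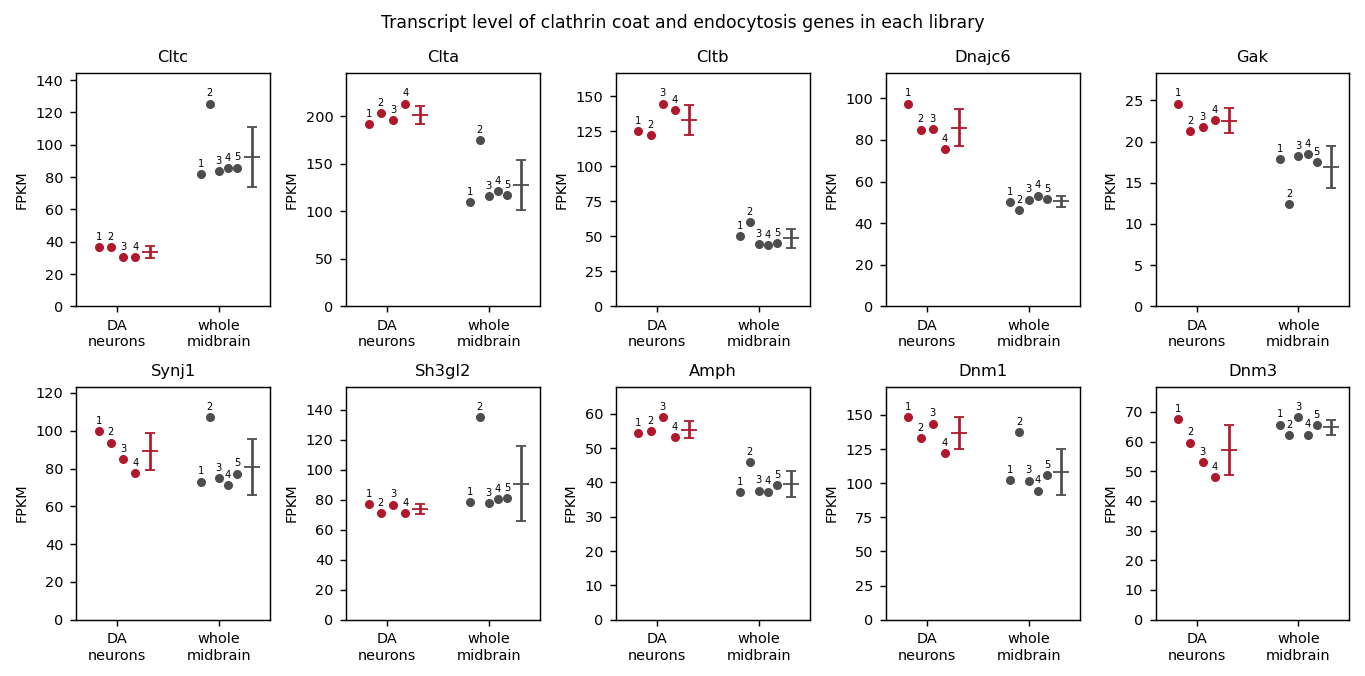
Level of each of the 10 genes in FPKM (vertical axes, each starting at 0), with 1 point per library numbered by replicate, dopaminergic (DA) neurons in red and whole midbrain in grey, and the mean ± SD beside each group. Cltc lies between 30.4 and 36.9 FPKM in dopaminergic neurons, below every whole midbrain library, while Cltb lies between 122 and 145 FPKM, above every one. Whole midbrain library 2 stands apart for Cltc, Clta, Gak, Synj1, Sh3gl2, Amph and Dnm1.

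The subunits of the clathrin coat moved in opposite directions. Cltc, the heavy chain (chromosome 11, 86694653 to 86757492, mm10), was at 36.9, 36.5, 30.6 and 30.4 FPKM in dopaminergic libraries 1 to 4, against 81.7, 125, 83.5, 85.5 and 85.8 FPKM in whole midbrain libraries 1 to 5. The groups did not overlap, and Cltc was 2.75-fold lower in dopaminergic neurons by the ratio of mean FPKM. Its log2 fold change was -1.42 (SE 0.13, limma adjusted p = 5.0e-06). Cltb, a light chain that, like Clta, has a neuronal splice form (chromosome 13, 54592939 to 54611272), was at 125, 122, 145 and 140 FPKM in dopaminergic libraries and 50.3, 60.0, 44.4, 43.6 and 45.1 FPKM in whole midbrain libraries. It rose 2.73-fold, with a log2 fold change of 1.44 (SE 0.11, limma adjusted p = 9.5e-07), and the lowest dopaminergic library was above the highest whole midbrain library.

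Clta, the other light chain (chromosome 4, 44012643 to 44032848), was the most abundant member in both groups. It was at 191.5, 203, 195.5 and 213 FPKM in dopaminergic libraries and 110.0, 175, 116, 121 and 117 FPKM in whole midbrain libraries. All dopaminergic libraries were above all of whole midbrain, library 2 being the nearest. The log2 fold change of Clta was 0.67 (SE 0.13, limma adjusted p = 0.0010). The call ended as TPM (0.03, limma adjusted p = 0.75), and after correction for exonic length and GC content (0.24, limma adjusted p = 0.13). The sign turned after quantile normalization (-0.16, limma adjusted p = 0.082) and as TPM without small RNA, ribosomal and mitochondrial rows (-0.03), with an adjusted p spanning 6.2e-08 to 0.76 over the alternatives.

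A ratio of 2 genes within a library does not depend on a scaling that multiplies all values of a library by 1 factor, although quantile normalization can change it. The summed light chains stood to the heavy chain at 8.59, 8.91, 11.1 and 11.6 in dopaminergic libraries 1 to 4, against 1.96, 1.87, 1.92, 1.93 and 1.89 in whole midbrain libraries. The dopaminergic libraries averaged 10.1 ± 1.53 (SD, n = 4) and the whole midbrain libraries 1.91 ± 0.0355 (SD, n = 5), and whole midbrain library 2 was the lowest of its group here by a small margin. The difference was 2.38 on the log2 scale (exact permutation test, two-sided, p = 0.0079, which is the smallest it can give, adjusted p = 0.016 over 8 ratios and shares). Within the dopaminergic group, libraries 1 and 2 were the lower and libraries 3 and 4 the higher, and their estimated read numbers were 48.5, 47.2, 62.5 and 60.8 megareads; whether depth plays a part was not tested. The annotated exonic length is 8499 bases for Cltc, 1800 for Clta and 4868 for Cltb, and with the fold changes corrected for exonic length Cltc stood at -1.19, Clta at 0.32 and Cltb at 1.43.

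Clta made up a smaller part of the light chains in dopaminergic neurons. Its share of the summed Clta and Cltb FPKM was 60.5, 62.4, 57.5 and 60.3% in dopaminergic libraries and 68.6, 74.4, 72.3, 73.6 and 72.1% in whole midbrain libraries. The groups did not overlap, and the means of 60.2 ± 2.04% (SD, n = 4) and 72.2 ± 2.21% (SD, n = 5) differed by -12.03 percentage points (exact permutation test, two-sided, p = 0.0079, adjusted p = 0.016).

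**Figure D2:**
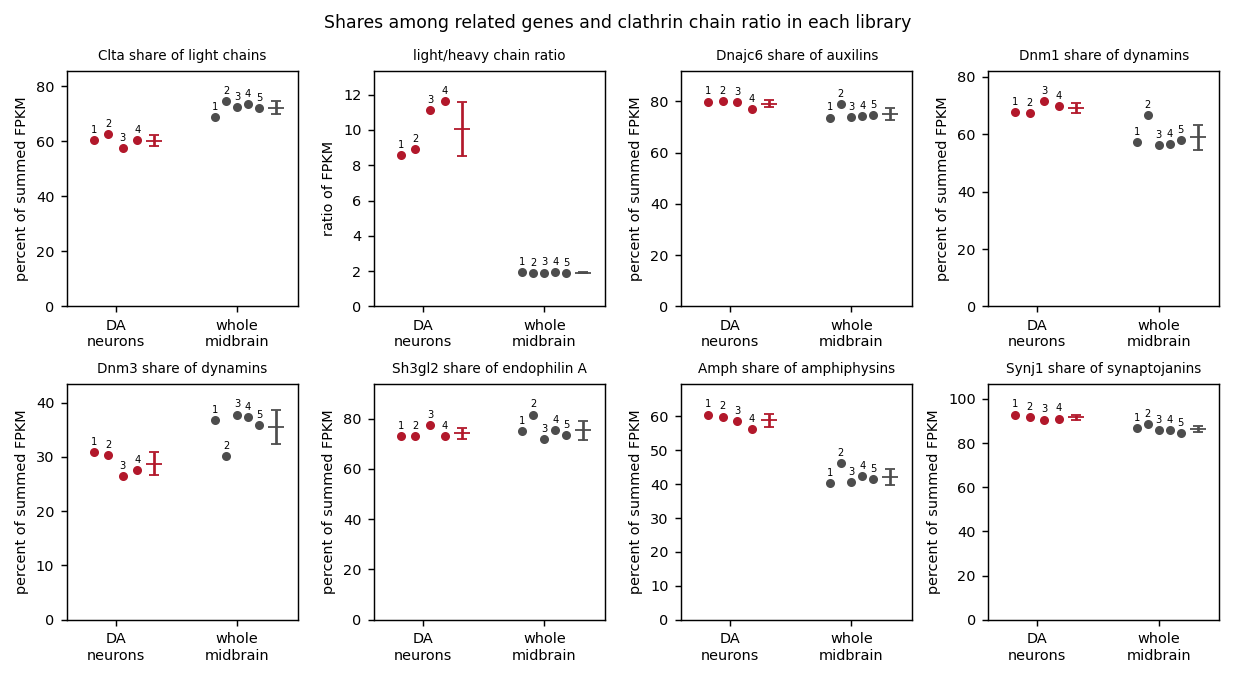
Shares among related genes (percent of their summed FPKM) and the ratio of summed light chains to the heavy chain of clathrin (vertical axes, each starting at 0), with 1 point per library numbered by replicate and the mean ± SD beside each group. The chain ratio is 8.59 to 11.6 in dopaminergic (DA) neurons and 1.87 to 1.96 in whole midbrain, and Amph makes up 56.3 to 60.5% of the amphiphysins in dopaminergic neurons and 40.2 to 46.2% in whole midbrain.

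The genes that bend membrane differed from each other. Amph (chromosome 13, 18948351 to 19150919) was at 54.5, 55.0, 59.1 and 53.2 FPKM in dopaminergic libraries and 37.1, 46.0, 37.6, 37.4 and 39.3 FPKM in whole midbrain libraries. The groups did not overlap, and Amph rose by 0.48 on the log2 scale (SE 0.08, limma adjusted p = 0.00034). After quantile normalization its log2 fold change was 0.01 (limma adjusted p = 0.89), and as TPM its sign turned, to -0.15 (limma adjusted p = 0.092); as TPM without small RNA, ribosomal and mitochondrial rows it was called lower (-0.21, limma adjusted p = 0.032), with an adjusted p spanning 1.2e-06 to 0.89 over the alternatives. Bin1, the paralog found in most tissues, fell by 0.47 (limma adjusted p = 0.00020), with 38.8 ± 3.13 FPKM in dopaminergic neurons, compared with 53.9 ± 1.90 in whole midbrain; its exons share 256 bases with A830052D11Rik on the opposite strand. Amph made up 58.9 ± 1.87% of the 2 amphiphysins in dopaminergic neurons and 42.2 ± 2.38% in whole midbrain, and no library of the groups overlapped (exact permutation test, two-sided, p = 0.0079, adjusted p = 0.016).

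Sh3gl2 (chromosome 4, 85205456 to 85389379), which encodes the brain form of endophilin, was at 76.8, 71.2, 76.6 and 71.1 FPKM in dopaminergic libraries and 78.4, 135, 77.7, 80.6 and 80.9 FPKM in whole midbrain libraries. All dopaminergic libraries were below all of whole midbrain, by a narrow margin except for whole midbrain library 2. Its log2 fold change of -0.25 did not pass (95% interval -0.61 to 0.10, limma adjusted p = 0.17). Without whole midbrain library 2 the whole midbrain mean became 79.4 ± 1.57 FPKM and the ratio of the means 0.931, against 0.816 with it. Under upper-quartile scaling, as TPM and after quantile normalization Sh3gl2 was called lower (-0.49, -0.90 and -0.89), and over the alternatives its limma adjusted p lay between 3.7e-06 and 0.59. Its share of the 3 endophilin A genes was 74.2 ± 2.23% in dopaminergic neurons and 75.5 ± 3.74% in whole midbrain. The difference of -1.30 percentage points did not pass (exact permutation test, two-sided, p = 0.60), and without whole midbrain library 2 its sign turned, to 0.24. The paralogs Sh3gl1 and Sh3gl3 did not pass either, at 0.03 and -0.19 on the log2 scale (limma adjusted p = 0.77 and 0.12), and Sh3gl3 shares 398 exonic bases with Gm45089 on the opposite strand.

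Of the dynamins, Dnm1, the main form of nerve terminals (chromosome 2, 32308471 to 32353304), was at 149, 133, 144 and 122 FPKM in dopaminergic libraries and 102, 137, 102, 94.5 and 106 FPKM in whole midbrain libraries. Whole midbrain library 2 lay among the dopaminergic libraries, and the other 4 lay below them. Dnm1 rose by 0.34 on the log2 scale (SE 0.12, limma adjusted p = 0.022). The call ended without whole midbrain library 4 (0.30, limma adjusted p = 0.054), dopaminergic library 1 (0.30, 0.066) or dopaminergic library 3 (0.32, 0.060). It also ended under upper-quartile scaling (0.10, limma adjusted p = 0.36) and with exonic length and GC corrected (0.27, limma adjusted p = 0.054). It turned to a call in the other direction as TPM (-0.30, limma adjusted p = 0.0092) and after quantile normalization (-0.40, limma adjusted p = 0.0014), with an adjusted p spanning 1.0e-04 to 0.36 over the alternatives. With the replicate number as a block it did not pass (0.34, limma adjusted p = 0.066).

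Dnm3, a dynamin of brain and testis (chromosome 1, 161987302 to 162478034), was at 67.7, 59.7, 53.0 and 48.0 FPKM in dopaminergic libraries and 65.7, 62.1, 68.3, 62.3 and 65.5 FPKM in whole midbrain libraries. The groups overlapped through dopaminergic library 1. Its log2 fold change of -0.19 did not pass (95% interval -0.41 to 0.03, limma adjusted p = 0.11). Without dopaminergic library 1 it was called lower (-0.27, limma adjusted p = 0.022), as it was under upper-quartile scaling, as TPM and after quantile normalization (-0.43, -0.83 and -0.76). Corrected for exonic length (24452 bases in the annotation), it was called higher (0.53, limma adjusted p = 0.00070), with an adjusted p spanning 0.00012 to 0.32 over the alternatives. Its exons share 355 bases with Gm10176 on the opposite strand.

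Dnm2, the dynamin found in all tissues, fell by 1.12 on the log2 scale (limma adjusted p = 4.9e-05), with 4.02 ± 0.609 FPKM in dopaminergic neurons and 9.97 ± 1.79 FPKM in whole midbrain, and it shares 207 exonic bases with Tmed1 on the opposite strand. Of the summed FPKM of the 3 dynamins, Dnm1 made up 67.7, 67.5, 71.5 and 69.97% in dopaminergic libraries and 57.2, 66.6, 56.4, 56.5 and 58.0% in whole midbrain libraries. Every dopaminergic library was above every whole midbrain library, with library 2 close to them, and the difference was 10.2 percentage points (exact permutation test, two-sided, p = 0.016, adjusted p = 0.025). The share of Dnm3 was 28.8 ± 2.15% in dopaminergic neurons and 35.6 ± 3.14% in whole midbrain, and the groups overlapped through whole midbrain library 2 at 30.1%. That difference of -6.78 percentage points passed (exact permutation test, two-sided, p = 0.032, adjusted p = 0.036), but with 1 library left out its adjusted p ran from 0.033 to 0.098. These dynamin shares come from FPKM as deposited. With exonic length corrected, the log2 fold change of Dnm3 (0.53) was above that of Dnm1 (0.36), and with length and GC corrected they were 0.55 for Dnm3 and 0.27 for Dnm1, so the relative direction of the 2 genes turned.

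Among the genes of uncoating, Dnajc6, the neuronal auxilin (chromosome 4, 101496648 to 101642799), was at 97.5, 85.0, 85.3 and 75.7 FPKM in dopaminergic libraries and 50.2, 46.4, 51.4, 53.3 and 51.6 FPKM in whole midbrain libraries. The lowest dopaminergic library was above the highest of whole midbrain. Dnajc6 rose by 0.75 on the log2 scale (SE 0.09, limma adjusted p = 1.9e-05), 1.70-fold by the ratio of the means, and 0.71 above the median of all genes tested. As TPM its log2 fold change was 0.11 (limma adjusted p = 0.46), which is 0.66 above the median of all genes, and after quantile normalization 0.15 (limma adjusted p = 0.25), 0.04 above that median. Its adjusted p ran from 2.3e-06 to 0.72 over the alternatives, and its sign turned in none of them. Dnajc6 has 2 RefSeq starts, and the nearer lies 11328 bases from the start of the gene in the deposited table.

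Gak (chromosome 5, 108569107 to 108629777), the auxilin of most cell types, was the least abundant member in both groups. It was at 24.6, 21.3, 21.7 and 22.6 FPKM in dopaminergic libraries and 17.9, 12.4, 18.3, 18.4 and 17.5 FPKM in whole midbrain libraries. The groups did not overlap, and whole midbrain library 2 was the lowest of all. Gak rose by 0.41 on the log2 scale (SE 0.12, limma adjusted p = 0.0090). It did not pass under upper-quartile scaling (0.18, limma adjusted p = 0.27) or quantile normalization (0.18, limma adjusted p = 0.29), and as TPM its sign turned (-0.21, limma adjusted p = 0.32), with an adjusted p spanning 0.00045 to 0.32 over the alternatives. Its exons share 199 bases with Gm43365 on the same strand. Dnajc6 made up 79.1 ± 1.43% of the 2 auxilins in dopaminergic neurons and 75.1 ± 2.21% in whole midbrain, with whole midbrain library 2 at 79.0% among the dopaminergic libraries. The difference of 4.05 percentage points passed (exact permutation test, two-sided, p = 0.024, adjusted p = 0.032), and with 1 library left out its adjusted p ran from 0.024 to 0.082.

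Synj1 (chromosome 16, 90936097 to 91011308) was at 100.0, 93.7, 84.9 and 77.7 FPKM in dopaminergic libraries and 73.0, 107, 75.1, 71.3 and 77.2 FPKM in whole midbrain libraries. The groups overlapped through whole midbrain library 2 alone, and the log2 fold change of 0.15 did not pass (95% interval -0.14 to 0.44, limma adjusted p = 0.32). Without that library Synj1 was called higher, at 0.26 (limma adjusted p = 0.0075), as it was with exonic length corrected (0.35, limma adjusted p = 0.032) and with length and GC corrected (0.37, limma adjusted p = 0.027). It was called lower as TPM (-0.49, limma adjusted p = 0.00093) and after quantile normalization (-0.47, limma adjusted p = 0.00094), and its sign turned under upper-quartile scaling (-0.09, limma adjusted p = 0.50), with an adjusted p spanning 0.00033 to 0.58 over the alternatives. The paralog Synj2 fell by 0.59 (limma adjusted p = 0.00014), with 8.09 ± 0.568 FPKM in dopaminergic neurons, compared with 12.7 ± 1.28 in whole midbrain, and shares 297 exonic bases with Serac1 on the opposite strand. Synj1 made up 91.6 ± 0.989% of the synaptojanins in dopaminergic neurons and 86.3 ± 1.41% in whole midbrain, with no overlap (exact permutation test, two-sided, p = 0.0079, adjusted p = 0.016).

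**Figure D3:**
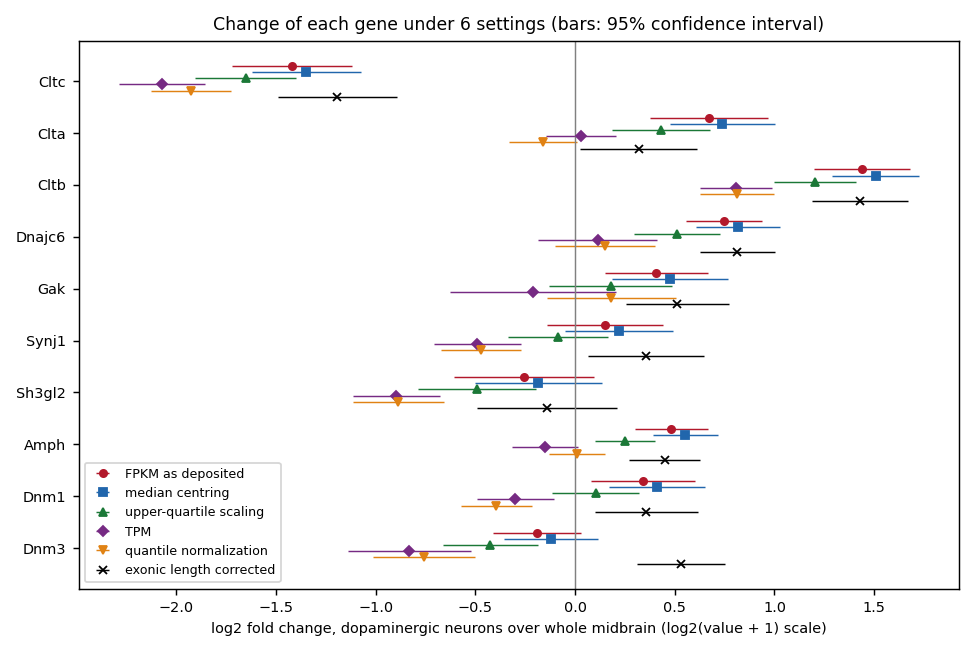
Log2 fold change of each gene, dopaminergic neurons over whole midbrain, with its 95% confidence interval (horizontal axis), for FPKM as deposited, 4 other scalings and a correction for exonic length. Cltc and Sh3gl2 stay below 0 and Cltb and Dnajc6 above 0 in all 6, although Sh3gl2 and Dnajc6 were not called in each. Clta, Gak, Synj1, Amph, Dnm1 and Dnm3 lie on both sides of 0.

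The order of the levels, which FPKM gives per length, differed between the groups. In dopaminergic neurons it ran Clta (201 FPKM), Dnm1 (137), Cltb (133), Synj1 (89.1), Dnajc6 (85.8), Sh3gl2 (73.9), Dnm3 (57.1), Amph (55.4), Cltc (33.6) and Gak (22.6). There the ranges of Dnm1 and Cltb overlapped, as did those of Synj1 and Dnajc6, Dnajc6 and Sh3gl2, and Dnm3 and Amph. Within single libraries Dnajc6 was above Sh3gl2 in all 4 and Synj1 above Dnajc6 in 3. Dnm1 was above Cltb in 2, as was Dnm3 above Amph. In whole midbrain it ran Clta (128 FPKM), Dnm1 (108), Cltc (92.4), Sh3gl2 (90.5), Synj1 (80.8), Dnm3 (64.8), Dnajc6 (50.6), Cltb (48.7), Amph (39.5) and Gak (16.9), and each of the first 5 overlapped its neighbour, as did Dnajc6 and Cltb, and Cltb and Amph. Within single whole midbrain libraries Clta was above Dnm1, Dnm1 above Cltc, Sh3gl2 above Synj1 and Cltb above Amph in all 5. Cltc was above Sh3gl2 in 4 of them and Dnajc6 above Cltb in 3. By mean level Cltc thus stood 9th of 10 in dopaminergic neurons and 3rd in whole midbrain, and Cltb 3rd and 8th. Among all genes tested within a library, Cltc ranked at the 81.0th to 83.9th percentile in dopaminergic libraries and the 95.3rd to 96.1st in whole midbrain libraries. Cltb ranked at the 94.8th to 95.4th and the 90.3rd to 91.9th percentile. Clta had nearly the same rank in both, at the 96.4th to 96.7th and the 96.6th to 97.2nd percentile, although its FPKM was higher in dopaminergic neurons.

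Dopaminergic libraries also differed among themselves. Of the 10 members 7 were highest in dopaminergic library 1 and 7 were lowest in library 4, Cltc, Dnajc6, Synj1, Sh3gl2, Dnm1 and Dnm3 being in both sets. The light chain Clta went the other way, lowest in library 1 and highest in library 4. How many of all genes tested were highest in library 1 or lowest in library 4 was not counted, so 7 of 10 has no background. The summed dopaminergic markers were at 6048 FPKM in library 1 and 5255 FPKM in library 4, and the pan-neuronal genes at 8106 and 7640 FPKM. Every other marker list summed higher in library 4, such as oligodendrocytes (180.1 and 309.4), astrocytes (182.3 and 220.7) and GABAergic neurons (69.29 and 98.75). The part of these was not tested.

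Among all genes with a single row, those whose log2(FPKM + 1) followed Dnajc6 most closely over the 9 libraries were AW551984, Spred2 and Zfp553 (Pearson's r of 0.997, 0.994 and 0.994). AW551984 was at 28.1 to 37.8 FPKM in dopaminergic libraries and 14.3 to 16.2 FPKM in whole midbrain libraries. The genes closest to Synj1 were Tpm3, D19Bwg1357e and Hsp90ab1 (r of 0.980, 0.969 and 0.966), and all 3 were at their highest in whole midbrain in library 2, as Synj1 was. These values are a description, since the libraries of a group share their cell source and library 2 its deviation.

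Of 76 other genes of endocytosis and adaptor complexes, 73 passed the filter on low values. Of these 31 were called higher and 24 lower, and as TPM 13 and 44. Their median log2 fold change was 0.06, against 0.04 for all genes tested. Of all 13106 genes tested, 38.3% were called higher and 36.0% lower, and as TPM 2248 were higher and 7393 lower. The counts of this set and of each list below are to be read against those of all genes. Of the 5 genes of AP2, the adaptor that links clathrin to plasma membrane cargo, 4 rose. The sigma subunit gene Ap2s1 was at 337 ± 20.5 FPKM in dopaminergic neurons, compared with 70.9 ± 48.8 in whole midbrain, where library 2 set the spread, since without it the mean was 49.1 ± 2.58. Ap2s1 rose by 2.42 on the log2 scale, the mu subunit gene Ap2m1 by 1.54, and the alpha subunit genes Ap2a2 and Ap2a1 by 1.25 and 0.80. As TPM Ap2a1 stood at 0.19 and did not pass, while the other 3 did. The beta subunit gene Ap2b1 stood at -0.13 and missed the threshold (limma adjusted p = 0.34). On the opposite strand Ap2a1 shares 720 exonic bases with Fuz and Ap2a2 241 with Gm16982.

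Of 19 tested endocytic adaptors and initiators 8 rose and 9 fell. The epsin gene Epn1 was at 28.3 ± 3.28 FPKM in dopaminergic neurons, compared with 11.96 ± 0.916 in whole midbrain. Dab2, an adaptor for lipoprotein receptors, was at 0.536 ± 0.147 FPKM against 8.29 ± 2.07 and fell by 2.57 on the log2 scale. It shares 211 exonic bases with Gm18888 on the opposite strand. Dab2 and Epn3 (0.936 and 1.69 FPKM), both among the 9, passed the filter of 1 FPKM only through whole midbrain. Their falls were thus favoured by the filter. Of 13 further genes for proteins that bend membrane 2 rose and 7 fell. Pacsin1, the neuronal syndapin, rose by 0.90 and did not pass as TPM (0.27, limma adjusted p = 0.13, between 5.6e-08 and 0.22 over the alternatives), and Fnbp1, an F-BAR protein gene, fell by 1.59.

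Of 8 genes of fission and phosphoinositide turnover 4 rose and 3 fell. All 3 kinases that make the lipid substrate of synaptojanin rose, with Pip5k1b at 16.7 ± 0.882 FPKM in dopaminergic neurons, compared with 4.67 ± 0.333 in whole midbrain, Pip5k1c up by 1.13 and Pip5k1a by 0.57. As TPM Pip5k1a stood at 0.07 and did not pass, while Pip5k1b and Pip5k1c did. Hspa8, the Hsc70 ATPase that auxilins recruit, was at 1615 ± 138 FPKM in dopaminergic neurons and 1179 ± 135 FPKM in whole midbrain. It rose by 0.46 on the log2 scale (limma adjusted p = 0.011), and its sign turned as TPM (-0.19, limma adjusted p = 0.34) and after quantile normalization (-0.40, limma adjusted p = 0.13), with adjusted p between 0.00014 and 0.34 over the alternatives; Hspa8 has many processed copies, so the split of its reads is uncertain. Hspa4, a chaperone of the related Hsp110 family, fell by 0.29, with limma adjusted p between 3.3e-05 and 0.077 over the alternatives. Hspa4 did not pass without dopaminergic library 3 (-0.24, limma adjusted p = 0.077) or library 4 (-0.21, limma adjusted p = 0.076). Nor did it pass after median centring (-0.22, limma adjusted p = 0.076) or with exonic length and GC corrected (-0.22, limma adjusted p = 0.074).

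Of 7 kinases and phosphatase subunits that act on endocytic proteins 4 rose and 2 fell. Cdk5, a kinase of dynamin and synaptojanin, was at 55.2 ± 2.23 FPKM in dopaminergic neurons, compared with 24.6 ± 4.83 in whole midbrain, and the calcineurin subunit genes Ppp3cb and Ppp3r1 rose by 0.99 and 0.97; as TPM Ppp3r1 stood at 0.34 and did not pass. Ppp3r1 shares 462 exonic bases with Wdr92 on the same strand. Aak1, the kinase of AP2, fell by 0.63 (limma adjusted p = 6.2e-05), and stood at 0.03 with exonic length corrected (limma adjusted p = 0.78, between 3.1e-06 and 0.81 over the alternatives). Of 17 tested subunits of AP1, AP3 and GGA adaptors, which sort cargo at the Golgi and endosomes, 8 rose and 2 fell. Ap1s1 was at 137.5 ± 10.8 FPKM in dopaminergic neurons, compared with 39.6 ± 8.97 in whole midbrain. Ap1g2, among the 2 that fell, was at 0.283 ± 0.0477 against 1.75 ± 0.253 FPKM and passed the filter only through whole midbrain. It shares 412 exonic bases with Thtpa and Gm20687 on the opposite strand.

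**Figure D4:**
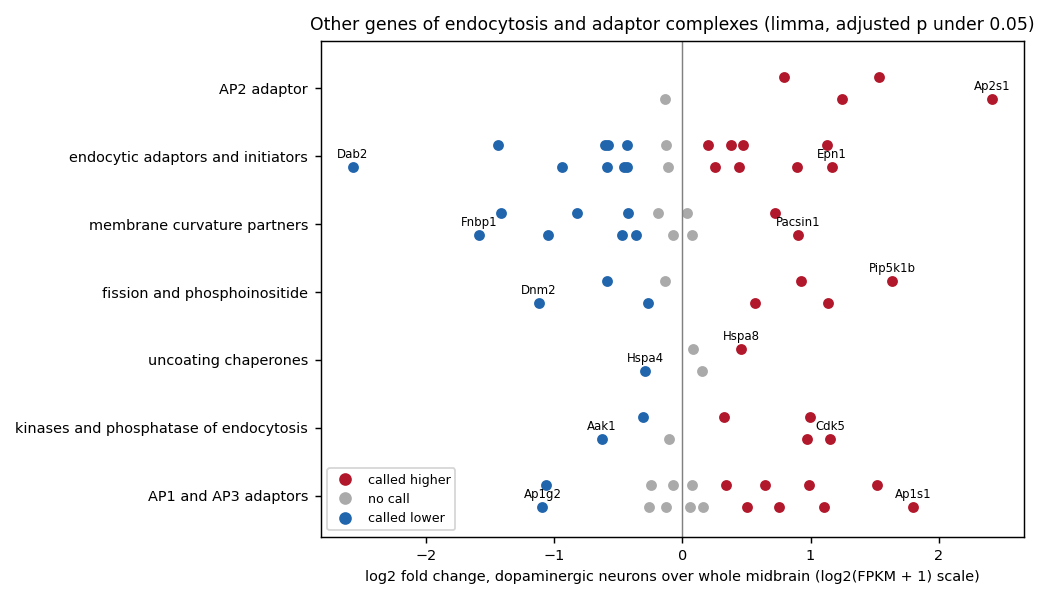
Log2 fold change of 73 other genes of endocytosis and adaptor complexes, dopaminergic neurons over whole midbrain (horizontal axis), 1 point per gene in 7 functional lists, coloured by the limma call. Of the AP2 genes 4 of 5 were called higher, with Ap2s1 at 2.42, while 7 of 13 genes of the membrane curvature list were called lower. Of all genes tested 38.3% were called higher and 36.0% lower.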

How the data were processed

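Libraries of dopaminergic neurons (4) and whole midbrain (5) were grouped by their titles. The deposited values are FPKM made by the authors, with TopHat2 2.0.8, Cufflinks 2.1.1 and the mm10 build named in the submitters' processing notes; the annotation, options and strand handling are not given in the sources that were used. FPKM of dopaminergic libraries carry up to 6 significant digits and those of whole midbrain up to 10, so any difference in how the 2 sets of files were handled cannot be told apart from cell type. No read counts were used. Sequencing depth is an estimate, taken from receptor genes of short genomic span, with fragments of 200 bases assumed. A single exon was assumed for these genes and not checked. Limma 3.58.1 in R 4.3.3 was fitted to log2(FPKM + 1), without a block, for genes averaging 1 FPKM or more, with a mean-variance trend and an adjusted p threshold of 0.05, and was tested on simulated data. A fold change on this scale understates the change of low genes. Shares between genes were compared with exact permutation tests, adjusted over 8. The rest was done in Python 3.11.15 (SciPy 1.17.1, pandas 2.3.3 and NumPy 2.4.6), with figures by matplotlib 3.10.9. Exonic lengths, GC content and overlaps of at least 100 exonic bases came from GENCODE M21 (GRCm38, the same assembly), matched by symbol and position for 22540 of 24487 rows; promoter windows came from RefSeq and matched all 10 genes.

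The members and gene lists were chosen with earlier results of these data known. Outside the members, the text names the passing gene with the largest rise and with the largest fall in each list whose groups did not overlap, the paralogs used in shares, Hspa8, and the 3 genes most like Dnajc6 and Synj1; Ap2m1, Ap2a1, Ap2a2, Ap2b1, Pip5k1a, Pip5k1c, Ppp3cb and Ppp3r1 were chosen after their values were seen. Th was named as the check of the label. Alternatives were pseudocounts of 0.1 and 5, no filter or a minimum mean of 5 FPKM, 5 other scalings, no trend, the replicate number as a block, loess corrections for exonic length (span 0.5) and for length and GC (span 0.3), and leaving out each library.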

Additional observations from a re-analysis of the deposited data

Results flagged for a closer look

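In groups of 4 or 5 libraries, the gap between the most extreme library and its neighbour was set against the whole range (Dixon's test). Its 95% limit, which chance passes in about 1 in 20 independent groups, was passed by 12 of 36 groups of values. The groups reuse the same libraries and genes, so the count of 12 cannot be set against that rate. Whole midbrain library 2 accounts for 10 of the 12. It was far above the rest of its group for Cltc (125 FPKM), Clta (175), Synj1 (107), Sh3gl2 (135), Amph (46.0) and Dnm1 (137.5), and far below it for Gak (12.4). In the same library Dnajc6 made up 79.0% of the auxilins, Dnm1 66.6% and Dnm3 30.1% of the dynamins, each away from the other 4 whole midbrain libraries. In dopaminergic library 4 Dnajc6 made up 77.0% of the auxilins, below the other 3, and in dopaminergic library 3 Sh3gl2 made up 77.5% of the endophilin A genes, above the other 3.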

How the results depend on the processing

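Cltc was called lower and Cltb higher in all 22 alternative fits (limma), with log2 fold changes of -2.13 to -1.15 and 0.75 to 1.52. Rescaling to TPM moved the median of all genes tested to -0.55, or to -0.60 without small RNA, ribosomal RNA and mitochondrial rows; genes called higher and lower became 2248 and 7393, or 2068 and 7667, against 5014 and 4717. With a minimum mean of 5 FPKM 2493 genes were lower. Members called higher and lower were 1 and 5 as TPM, 1 and 6 without those rows, and 1 and 5 after quantile normalization; with upper-quartile scaling 3 were lower (and 4 higher). With exonic length corrected they were 8 and 1. All genes called higher and lower were 4998 and 4100 after quantile normalization and 3872 and 5673 with upper-quartile scaling. With exonic length corrected all genes gave 4733 and 4196. Other endocytosis genes called higher and lower were 13 and 44 as TPM and 13 and 46 without those rows. Signs turned as TPM for Gak (-0.21), Synj1 (-0.49), Amph (-0.15), Dnm1 (-0.30), Hspa8 (-0.19) and Sh3gl1 (-0.57), and without those rows for Clta (-0.0285), Gak (-0.27), Synj1 (-0.55), Amph (-0.21), Dnm1 (-0.36), Hspa8 (-0.24) and Sh3gl1 (-0.63). They turned after quantile normalization for Clta (-0.16), Synj1 (-0.47), Dnm1 (-0.40) and Hspa8 (-0.40), and under upper-quartile scaling for Synj1 (-0.0864) and Sh3gl1 (-0.18). With exonic length corrected Dnm3 stood at 0.53 and Aak1 at 0.0279, and with length and GC corrected at 0.55 and 0.0240. The cause was not tested.

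Leaving out 1 library gave 4699 to 5654 genes higher and 4445 to 4974 lower, 5 to 7 members higher and 1 to 2 lower, and 28 to 32 and 22 to 27 other endocytosis genes. Sh3gl1 stood at -0.0075 without whole midbrain library 2 and -0.0296 without dopaminergic library 1, with a range of -0.0296 to 0.0838. The shares ran from -12.9 to -11.1 points (Clta), 3.71 to 5.03 (Dnajc6), 9.47 to 12.2 (Dnm1), -8.15 to -6.00 (Dnm3), -2.42 to 0.24 (Sh3gl2), 16.1 to 17.7 (Amph) and 4.90 to 5.86 (Synj1), and the chain ratio from 2.31 to 2.46 (log2). Calls of the Dnajc6 and Dnm3 shares ended in several of these (adjusted p up to 0.082 and 0.098); with 4 libraries in each group the smallest exact p is 0.0286.

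Samples with the same replicate number did not deviate together (r of -0.05 to 0.02 for 4 pairs). So few pairs cannot tell whether such samples shared animals or a batch, and the labels do not say. With the replicate number as a block 5 members were higher and 1 lower, and Dnm1 (0.34), Hspa8 (0.48) and Hspa4 (-0.29) did not pass. Of all 13106 genes tested 4554 were then higher and 4355 lower. Within the 4 pairs, the smallest exact p is 0.125, so no share could pass; the mean differences were -12.1 (Clta), 3.96 (Dnajc6), 9.999 (Dnm1), -6.71 (Dnm3), 16.5 (Amph) and 4.90 points (Synj1) and 2.38 for the log2 chain ratio.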
